A study of Homo sapiens with 24 samples.

Results

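ASB2, RIN1 and SLC17A1 were followed across 24 one-colour Agilent arrays of human hepatocellular carcinoma (HCC) cells. The genes were chosen because their levels differed by more than 2-fold, with P below 0.001, between galunisertib-treated and control cells in both lines studied. Each was measured by 1 probe, printed once, so that the members are 3 of 58201 probes and 3 of 31204 named genes on the array. Among 14883 genes tested in both lines, 4 met that rule, or 0.0269%, and DUSP5, which encodes a phosphatase of ERK kinases, was the fourth. The difference between galunisertib and control cells therefore describes how the genes were found and is given here without a test.

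The lines were PLC/PRF/5 and SNU-449, both established from human HCC. Each was grown as 4 groups of 3 independent cultures: control cells, cells with TGFβ1 at 1 ng/mL, cells with galunisertib at 10 µM, and cells with both agents. All groups were starved of serum overnight and treated for 16 h, so the controls carry the starvation too. Each line is a single cell line, 1 dose and 1 time were measured, and every group sat at 1 position of the 3 slides, so that position and treatment cannot be told apart. All 6 hepatocyte markers examined were well above background on all 12 PLC/PRF/5 arrays, whereas in SNU-449 only APOA1, SERPINA1 and TTR were, APOB and TF were above background on 0 arrays, and ALB was on 2. The mesenchymal markers VIM, ZEB1, SPARC and CDH2 were detected on every array of both lines. By mean level each was higher in SNU-449, with SPARC at -2.19 in PLC/PRF/5 and 5.83 in SNU-449.

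TGFβ acts through a pair of membrane serine/threonine kinase receptors that phosphorylate SMAD proteins, which then enter the nucleus and change transcription, and galunisertib blocks the kinase of the type I receptor. In early liver cancer the pathway restrains growth, and later it favours a mesenchymal, invasive state. ASB2 is the substrate-recognition subunit of a cullin-5 ubiquitin ligase that marks filamins, the actin crosslinkers, for degradation. RIN1 binds active Ras, activates RAB5 GTPases of early endosomes and stimulates the ABL tyrosine kinases. SLC17A1 is an anion transporter of the kidney and liver, first described as a sodium-phosphate cotransporter and known for urate transport.

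The pathway responded in these cultures. SKIL, SMAD7 and PMEPA1, which encode inhibitors of TGFβ signalling that the pathway itself induces, fell in both lines when galunisertib was added to TGFβ, with SMAD7 at a log2 change of -1.52 ± 0.11 (SE) in PLC/PRF/5 and -1.19 ± 0.13 in SNU-449 (limma adjusted p = 5.1e-06 and 1.7e-04). In SNU-449 all 3 also fell with galunisertib in the absence of added TGFβ, SMAD7 by a log2 of -1.88 ± 0.13 (limma adjusted p = 0.00015). In PLC/PRF/5 only SKIL of the 3 passed in that comparison (-0.60 ± 0.12, limma adjusted p = 0.017). SMAD7 stood at -0.42 ± 0.11 (limma adjusted p = 0.051), and the PMEPA1 probe, another one than in SNU-449, was well above background on 0 of 3 control arrays, so that a fall could not be seen. Whether the lines differ in these falls was not tested.

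Because the 3 genes move with the same inhibitor, the 250 bases before their annotated starts are shown, as the minus strand of GRCh38.p14 read 5′ to 3′ from RefSeq. Capitals mark matches to CAGAC, the short SMAD-binding element, on either strand (as GTCTG on the other).
ASB2, chr14:93976571-93976820: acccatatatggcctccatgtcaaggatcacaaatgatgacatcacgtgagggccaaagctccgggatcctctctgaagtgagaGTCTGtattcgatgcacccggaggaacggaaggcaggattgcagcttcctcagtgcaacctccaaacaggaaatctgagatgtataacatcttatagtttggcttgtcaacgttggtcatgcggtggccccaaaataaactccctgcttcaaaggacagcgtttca
RIN1, chr11:66336435-66336684: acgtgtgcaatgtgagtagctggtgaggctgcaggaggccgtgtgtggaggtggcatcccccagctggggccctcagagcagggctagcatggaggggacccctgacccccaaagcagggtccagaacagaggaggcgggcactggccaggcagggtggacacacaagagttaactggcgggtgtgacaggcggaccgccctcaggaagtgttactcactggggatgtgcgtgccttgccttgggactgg
SLC17A1, chr6:25832053-25832302: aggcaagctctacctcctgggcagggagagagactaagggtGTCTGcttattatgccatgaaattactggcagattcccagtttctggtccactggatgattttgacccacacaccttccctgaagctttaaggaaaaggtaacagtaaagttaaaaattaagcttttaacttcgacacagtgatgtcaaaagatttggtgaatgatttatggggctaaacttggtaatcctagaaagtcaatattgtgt

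The element occurred once before ASB2, at 166 bases from the start, and once before SLC17A1, at 209 bases, and at no place in the RIN1 stretch. It was present in 38% of 35116 RefSeq promoter stretches of the same length. A second annotated start of ASB2, at chr14:93957048-93957297, had no match. Neither TGANTCA, the AP-1 element, nor CACCTG, an E-box, was found on either strand of the 4 stretches, against 6.57% and 17.5% of all promoters. These are matches of letters only, and binding was not measured.

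ASB2 rose in both lines when galunisertib was added to TGFβ, and it rose further in PLC/PRF/5. Levels below are log2 of the probe's signal over the 75th percentile of its array, so that 0 is the percentile itself, and values under a floor of 8.22% of it (log2 of -3.61) were set to the floor. In PLC/PRF/5, ASB2 was at -2.16, -2.35 and -1.58 in the control cultures and at -0.40, -0.86 and -0.76 with galunisertib. With TGFβ it was at -3.15, -2.94 and -2.64, and with both agents at -0.80, -0.87 and -1.11. The TGFβ arrays were the lowest of the line and those with galunisertib, with or without TGFβ, the highest, with no overlap between treated and untreated arrays.

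Galunisertib added to TGFβ raised ASB2 in PLC/PRF/5 by a log2 of 1.98 ± 0.20 (SE, n = 3 per group, limma adjusted p = 5.7e-05), a 3.96-fold rise. It was the rank 19 rise among 16684 genes tested, of which 39% passed an adjusted p of 0.05 in either direction. Galunisertib alone stood 1.36 ± 0.20 above control. TGFβ alone stood 0.88 below control (log2 change of -0.88 ± 0.20), without overlap, and cells with both agents stayed 1.11 ± 0.20 above control.

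In SNU-449, ASB2 was at -1.28, -1.55 and -1.25 in control cells, at 0.02, -0.45 and -0.32 with galunisertib, at -1.85, -1.68 and -1.47 with TGFβ, and at -0.70, -0.73 and -0.89 with both. TGFβ-treated and control arrays overlapped in this line, and the change was -0.31 ± 0.15. Galunisertib added to TGFβ raised the gene by 0.90 ± 0.15 (limma adjusted p = 0.0021), a 1.86-fold rise of rank 559, in a comparison where 16.3% of 16101 genes passed. With the arrays scaled to their median in place of the 75th percentile the value was 0.74 and no longer passed (limma adjusted p = 0.075). That scaling moved the median change of all genes in SNU-449 from -0.01 to -0.17.

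The rise of ASB2 differed between the lines. The difference, SNU-449 minus PLC/PRF/5, was -1.09 ± 0.26 (limma adjusted p = 0.0043), where 30% of 17902 genes differed between the lines in this way. Its size depends on the treatment of dim signals. With the floor doubled to 200% it was -0.78 (limma adjusted p = 0.021), and with normexp background correction -0.46 (limma adjusted p = 0.032). In TGFβ-treated cells, the ASB2 level in SNU-449 exceeded that in PLC/PRF/5 by 1.24 ± 0.19 (limma adjusted p = 6.4e-06), and 69.3% of genes differed between the lines in those cells. With both agents the arrays of the lines overlapped, at means of -0.93 in PLC/PRF/5 and -0.77 in SNU-449.

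**Figure D1:**
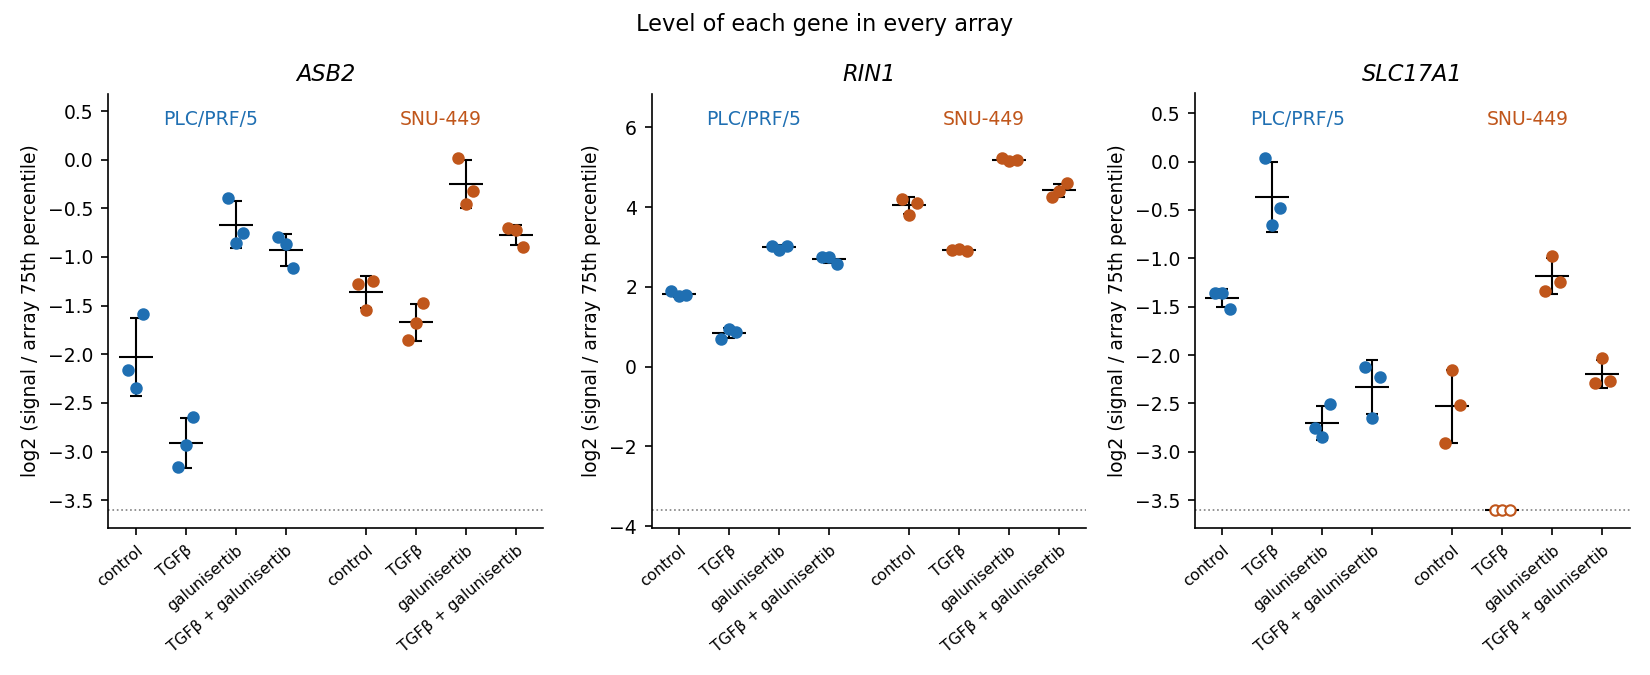
Log2 level of ASB2, RIN1 and SLC17A1 in every array (points), relative to the 75th percentile of the array, with the mean and SD of each group of 3 (bars), PLC/PRF/5 in blue and SNU-449 in orange. Open points were not well above background, and the dotted line is the floor at -3.61. Against control, SLC17A1 with galunisertib alone was low in PLC/PRF/5 and high in SNU-449, whereas ASB2 and RIN1 were high in both.

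RIN1 rose in both lines when galunisertib was added to TGFβ. In PLC/PRF/5 it was at 1.89, 1.76 and 1.80 in control cells and at 3.02, 2.93 and 3.03 with galunisertib. TGFβ-treated cells were at 0.70, 0.94 and 0.87, and cells with both agents at 2.75, 2.74 and 2.58. The 4 groups did not overlap and were ordered from TGFβ through control and both agents to galunisertib alone.

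In SNU-449 the levels of RIN1 were higher throughout and had the same order. Control cells were at 4.21, 3.80 and 4.11, TGFβ-treated cells at 2.93, 2.95 and 2.90, galunisertib-treated cells at 5.24, 5.15 and 5.19, and cells with both agents at 4.25, 4.41 and 4.59. The groups again did not overlap, and the control arrays came closest to those with both agents.

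Galunisertib added to TGFβ raised RIN1 by 1.85 ± 0.09 in PLC/PRF/5 (limma adjusted p = 3.9e-07), a 3.61-fold rise, and by 1.49 ± 0.12 in SNU-449 (limma adjusted p = 2.1e-05), a 2.81-fold rise. These were the rank 25 and rank 118 rises of their lines. The line difference of -0.36 ± 0.14 did not pass (limma adjusted p = 0.063). Its 95% interval, which is not adjusted for the number of genes, ran from -0.66 to -0.06. That interval lies wholly on the side of a smaller rise in SNU-449. It passed without replicate 3 of both agents in PLC/PRF/5 (-0.42, limma adjusted p = 0.047), and likewise without replicate 3 of both agents in SNU-449 (-0.45, limma adjusted p = 0.025).

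TGFβ alone left RIN1 at a log2 change of -0.98 ± 0.09 in PLC/PRF/5 and -1.12 ± 0.12 in SNU-449, with no overlap with control in either line. Galunisertib alone stood above control by 1.18 ± 0.09 and 1.15 ± 0.12. With both agents RIN1 was 0.30 lower than with galunisertib alone in PLC/PRF/5 (log2 change of -0.30 ± 0.09) and 0.77 lower in SNU-449 (-0.77 ± 0.12), again without overlap. Under TGFβ, the RIN1 level of SNU-449 exceeded that of PLC/PRF/5 by 2.09 ± 0.10 (limma adjusted p = 3.1e-13). The lowest SNU-449 group overlapped the highest of PLC/PRF/5, the cells with galunisertib alone.

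SLC17A1 responded in opposite directions in the lines. In PLC/PRF/5 it was at -1.36, -1.36 and -1.52 in control cells, at 0.04, -0.65 and -0.48 with TGFβ, at -2.76, -2.85 and -2.50 with galunisertib and at -2.12, -2.65 and -2.23 with both. Arrays with TGFβ alone were the highest, and the groups with galunisertib were the lowest and overlapped each other. Galunisertib added to TGFβ lowered the gene by a log2 of -1.97 ± 0.18 (limma adjusted p = 3.2e-05), a 3.92-fold fall, which ranked 27 among the falls in this line.

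In SNU-449, SLC17A1 was at -2.91, -2.16 and -2.52 in control cells, at -1.34, -0.98 and -1.24 with galunisertib, and at -2.29, -2.03 and -2.27 with both agents. With TGFβ alone all 3 arrays failed to rise well above background and stood at the floor. The gene entered the tests of this line through the other groups, where it was detected on all 9 arrays. Adding galunisertib to TGFβ brought it back above background on 3 of 3 arrays, a rise by a log2 of 1.41 ± 0.17 from the floor (limma adjusted p = 3.4e-04), at least 2.98-fold and of rank 146. A bound such as this sets the mean of the brighter group against each dim array's own weakest signal well above background, here a mean log2 of -3.77. That limit lies under the common floor of -3.61 used in the fits, so a bound can exceed the fold that the fitted change gives. Before flooring, the TGFβ arrays stood at 5.89%, 0.85% and 1.56% of the percentile. Set to 1 value they have an SD of 0, so the SE and p of SLC17A1 in this line do not measure how those cultures varied.

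The size of the SLC17A1 rise in SNU-449 depends on where the floor is put. With the floor doubled to 200% it was 0.41 and no longer passed (limma adjusted p = 0.064), with the floor at 50% it was 2.24, and in the authors' own normalized table it was 3.46 (limma adjusted p = 0.0022). Compared with control, TGFβ alone was at least 2.36-fold lower in SNU-449, and in PLC/PRF/5 it was higher by 1.05 ± 0.18. Galunisertib alone stood at -1.29 ± 0.18 from control in PLC/PRF/5 and at 1.34 ± 0.17 in SNU-449.

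The difference between the lines in the effect of galunisertib added to TGFβ was 3.38 ± 0.26 for SLC17A1 (limma adjusted p = 2.5e-08). Only 4 of 17902 genes had a larger difference in that direction. Under TGFβ, PLC/PRF/5 cells held at least 10.6-fold more of the transcript than SNU-449 cells (log2 difference of -3.24, limma adjusted p = 4.8e-12). Both p-values rest on the floored SNU-449 arrays and do not measure the spread of those cultures. With both agents the arrays of the lines overlapped, at means of -2.33 in PLC/PRF/5 and -2.20 in SNU-449.

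**Figure D2:**
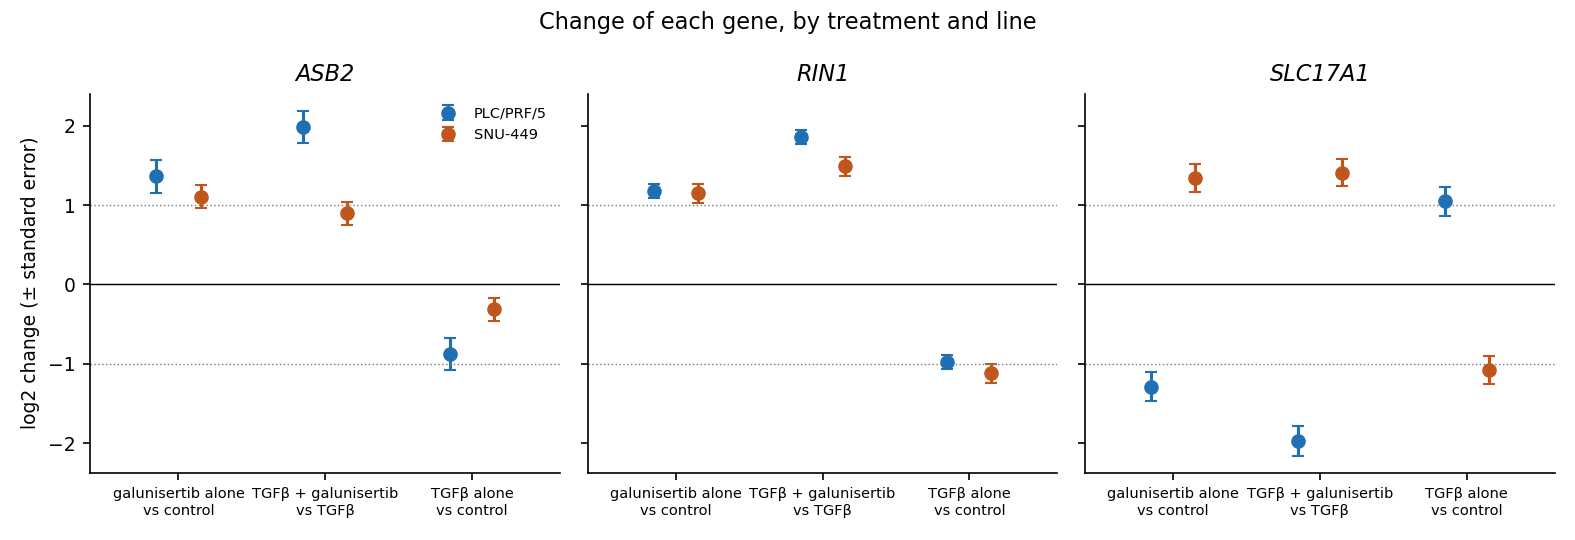
Log2 change with its standard error (vertical axis) for galunisertib alone against control, both agents against TGFβ, and TGFβ alone against control (horizontal axis), for each gene, PLC/PRF/5 in blue and SNU-449 in orange, 3 arrays per group. Dotted lines mark a 2-fold change. SLC17A1 lay at -1.97 in PLC/PRF/5 and at 1.41 in SNU-449 when galunisertib was added to TGFβ. The SNU-449 values of SLC17A1 against TGFβ, and for TGFβ alone, are changes from or to the floor, and floored arrays add no spread to the standard errors.

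All 3 genes passed in both lines when galunisertib was added to TGFβ, against 39% of genes in PLC/PRF/5 and 16.3% in SNU-449. The rule did not compare these groups, but the fit took its spread from all 12 arrays of a line. Those include the control and galunisertib arrays that the rule used, so the p-values are not independent of the choice of genes. With only the groups compared in the fit no call was lost, and ASB2 in SNU-449 had a limma adjusted p of 0.0047. For SLC17A1 in SNU-449 the call rests on TGFβ-treated arrays set to the floor, and it was lost with the floor doubled. Their groups did not overlap in this comparison in either line, as was so for 56.2% and 42.4% of genes. Among the 14883 genes tested in both lines, 78 (0.524%) changed more than 2-fold with P below 0.001 in each, of which 30 rose in both (0.202%), 34 fell in both (0.228%), 9 fell in PLC/PRF/5 and rose in SNU-449 (0.0605%) and 5 did the reverse (0.0336%). RIN1 was among the 30. SLC17A1 was among the 9, by its change from the floor in SNU-449, with SCGN, CLIP3, DNHD1, PNPLA7, TRIM67 and 3 long non-coding RNAs, genes named here after their values were seen. ASB2 missed the 2-fold limit in SNU-449.

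**Figure D3:**
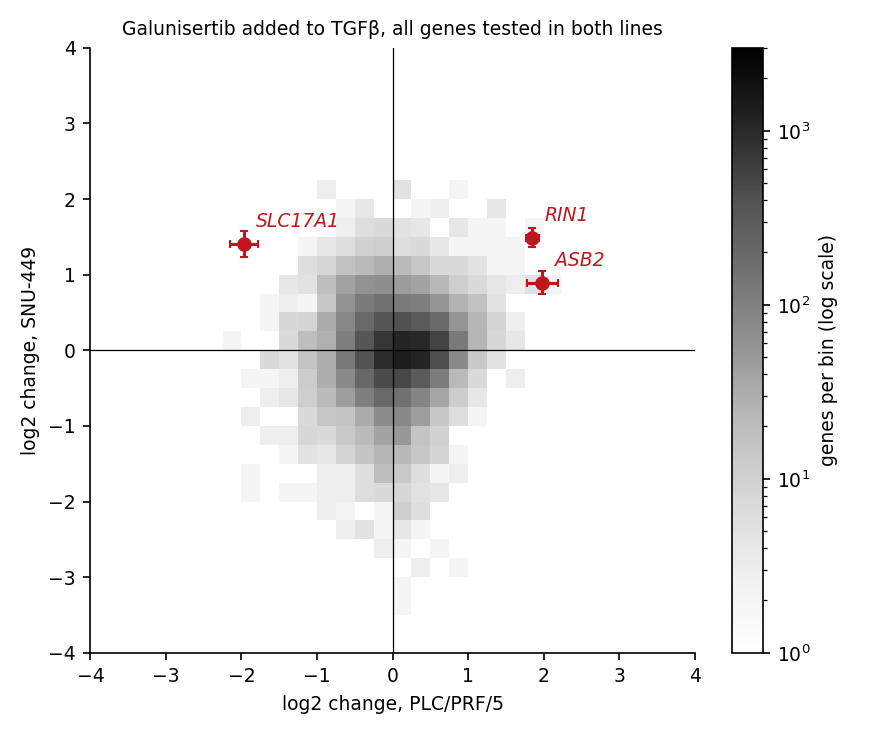
Log2 change when galunisertib was added to TGFβ, in PLC/PRF/5 (horizontal axis) and SNU-449 (vertical axis), as the number of genes per bin of 0.25 on a log colour scale, with the 3 genes in red and their standard errors. Of 14883 genes, RIN1 and ASB2 lay toward the right edge and SLC17A1 in the upper left quadrant, which holds 9 genes past 2-fold with P below 0.001 in each line.

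With galunisertib alone, the comparison by which the genes were chosen, their groups did not overlap, as for 26.3% of genes in PLC/PRF/5 and 27.9% in SNU-449. The genes nearest the limit inside it were DUSP5 (log2 changes of 1.41 in PLC/PRF/5 and 1.29 in SNU-449), SLC17A1, RIN1 and ASB2, and those just outside were BMF (-1.15 and -0.99), ITGA10 (0.96 and 1.11), LINC00239 (1.02 and 0.95) and F2RL1 (0.95 and 1.06). With normexp background correction ASB2 stood at 0.63 in PLC/PRF/5 and 0.74 in SNU-449, and SLC17A1 at -0.45 and 0.52, all under the 2-fold limit, while RIN1 stood at 1.14 and 1.08.

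Where TGFβ acted alone, control and treated arrays did not overlap for 3 of 3 genes in PLC/PRF/5 and 2 of 3 in SNU-449, against 37.2% and 38.1% of all genes. By mean level, each gene lay in each line on the opposite side of control under TGFβ and under galunisertib, but the comparisons share the control arrays. When TGFβ was added to galunisertib-treated cells, 1 of 3 genes in PLC/PRF/5 (RIN1) and 3 of 3 in SNU-449 did not overlap (30.9% and 21.4% of all genes). The rule chose the genes on the galunisertib-alone and control arrays, so nothing is read from the counts of comparisons that use either. The SNU-449 values were -0.52 ± 0.15 for ASB2, -0.77 ± 0.12 for RIN1 and -1.01 ± 0.17 for SLC17A1. With both agents against control, 3 of 3 genes in PLC/PRF/5 and 2 of 3 in SNU-449 did not overlap (45% and 20.3% of all genes), with SLC17A1 at -0.92 ± 0.18 in PLC/PRF/5 and at 0.33 ± 0.17, overlapping, in SNU-449. The culture is measured as a whole, so that fewer expressing cells and less RNA per cell cannot be told apart.

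Beside SLC17A1 on chromosome 6, SCGN and SLC17A3 also fell in PLC/PRF/5 and rose in SNU-449 when galunisertib was added to TGFβ. In RefSeq order the protein-coding genes run CARMIL1, SCGN, SLC17A1, H2AC1, H2BC1, SLC17A4, SLC17A3 and SLC17A2, and the transcript models of SLC17A1 reach over H2AC1, H2BC1 and SLC17A4. SCGN, which encodes the calcium-binding protein secretagogin, fell in PLC/PRF/5 from 3.69, 3.25 and 3.57 with TGFβ to 2.65, 2.13 and 2.39 with both agents, a log2 change of -1.12 ± 0.20 (limma adjusted p = 0.0013). In SNU-449 it stood at the floor under TGFβ, detected on 0 of 3 arrays, and was at -2.04, -2.44 and -2.24 with both agents, a rise of 1.37 ± 0.16 (limma adjusted p = 2.2e-04), at least 2.89-fold. As with SLC17A1, the call in SNU-449 was lost with the floor doubled (0.37, limma adjusted p = 0.12). The floored arrays of SCGN likewise add no spread to its SE and p, here or in the line difference.

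SLC17A3, a urate exporter of the same family, was well above background on all 24 arrays, and its values do not touch the floor. In PLC/PRF/5 it fell from 0.01, -0.15 and 0.10 with TGFβ to -0.80, -1.21 and -0.87 with both agents (-0.95 ± 0.20, limma adjusted p = 0.0041). In SNU-449 it rose from -1.38, -1.17 and -1.55 to 0.89, 0.72 and 0.95 (2.22 ± 0.17, limma adjusted p = 1.9e-05). The groups did not overlap in either line, and the difference between the lines was 3.17 ± 0.28 (limma adjusted p = 1.4e-07).

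The line difference of SCGN was 2.48 ± 0.26 (limma adjusted p = 1.3e-06). With galunisertib alone SCGN also fell in PLC/PRF/5 (-0.80 ± 0.20, limma adjusted p = 0.044) and rose in SNU-449 (1.16 ± 0.16, limma adjusted p = 0.0025), and SLC17A3 rose in SNU-449 (1.04 ± 0.17, limma adjusted p = 0.0073) and stood at -0.67 ± 0.20 in PLC/PRF/5 (limma adjusted p = 0.084). TGFβ alone raised both in PLC/PRF/5, SCGN by 0.74 ± 0.20 and SLC17A3 by 0.78 ± 0.20 (limma adjusted p = 0.033 and 0.032), and lowered SLC17A3 in SNU-449 by a log2 of -1.75 ± 0.17 (limma adjusted p = 1.5e-04).

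SLC17A4, an intestinal relative of SLC17A1, was measured in PLC/PRF/5 alone, where it fell with galunisertib (-1.48 ± 0.14, limma adjusted p = 6.8e-04) and with galunisertib added to TGFβ (-1.33 ± 0.14, limma adjusted p = 7.4e-05). In SNU-449 it was above background on 0 of 12 arrays. H2AC1, a histone gene, fell in PLC/PRF/5 in both comparisons, by log2 changes of -1.08 ± 0.16 and -1.13 ± 0.16, and did not pass in SNU-449. CARMIL1, a regulator of actin capping protein on the far side of SCGN, rose in both lines with galunisertib added to TGFβ (0.54 ± 0.10 and 0.49 ± 0.14, limma adjusted p = 0.0019 and 0.037), though the call in SNU-449 was lost without any of 5 of the 6 arrays compared and its second probe stood there at 0.06. H2BC1 and SLC17A2 were too dim to test.

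**Figure D4:**
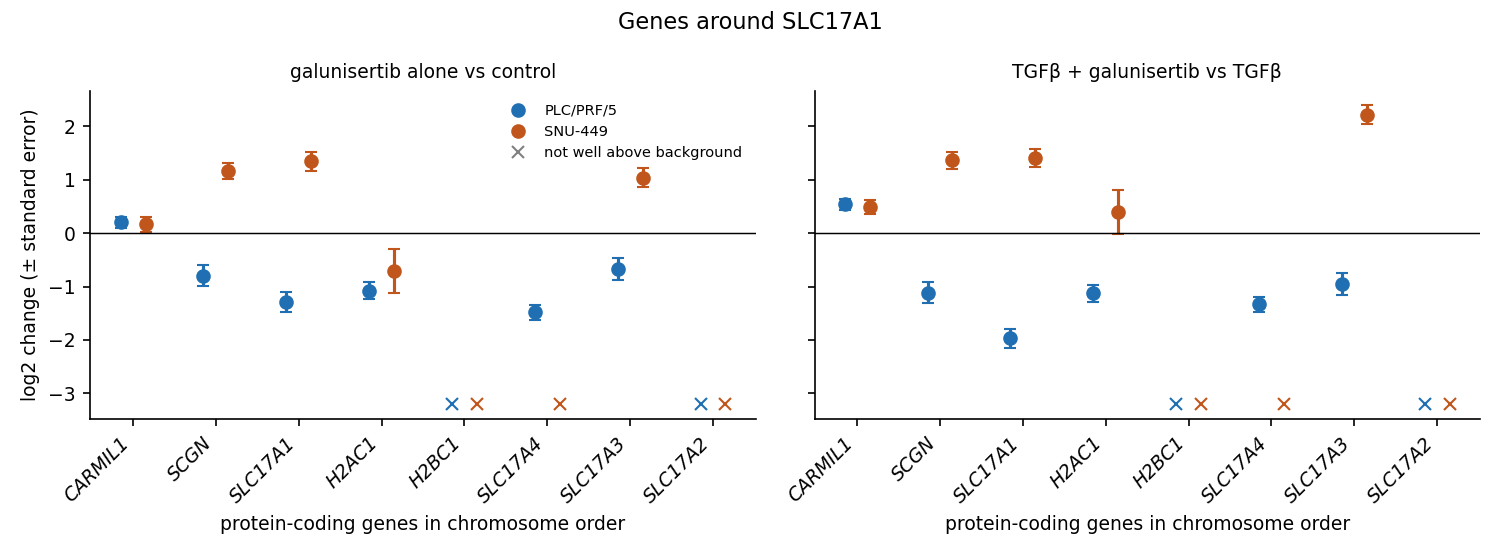
Log2 change with its standard error (vertical axis) of the protein-coding genes around SLC17A1, in chromosome order and not to scale (horizontal axis), for galunisertib alone (left) and galunisertib added to TGFβ (right), PLC/PRF/5 in blue and SNU-449 in orange. Crosses are genes not tested in that line because they were not well above background. SCGN, SLC17A1 and SLC17A3 lay below 0 in PLC/PRF/5 and above 0 in SNU-449 in both panels.

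Of the 4 protein-coding genes nearest ASB2, 0 of 4 tested in PLC/PRF/5 and 0 of 3 in SNU-449 passed with galunisertib added to TGFβ, where 39% and 16.3% of all genes did. FAM181A, one of these neighbours, stood at -1.43 ± 0.54 in SNU-449 (limma adjusted p = 0.099). Around RIN1, B4GAT1 rose in both lines (0.36 ± 0.12 and 0.49 ± 0.11, limma adjusted p = 0.031 and 0.011, the first lost without any of 5 of the 6 arrays compared) and TMEM151A fell in PLC/PRF/5 (-0.55 ± 0.10, limma adjusted p = 0.0015). Printed neighbours on the glass were also examined: the median deviation of the spots within 5 rows and 5 columns of each probe stayed between -0.17 and 0.21 on the log2 scale over all arrays, against deviations of the 3 probes from their line means that reached -1.52 and 1.74.

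Among relatives of the 3 genes and their partners, 58 genes on 5 lists, 20 of 44 tested passed with galunisertib added to TGFβ in PLC/PRF/5 (45.5%, 11 higher and 9 lower), beside 39% of all genes, and 6 of 40 in SNU-449 (15%, 2 higher and 4 lower), beside 16.3%. With galunisertib alone 4 of 44 passed in PLC/PRF/5 (9.09%, beside 4.96% of all genes) and 3 of 40 in SNU-449 (7.5%, beside 7.56%). The median change of those tested was 0.01 in PLC/PRF/5 and -0.08 in SNU-449 when galunisertib was added, beside 0.08 and -0.01 over all genes.

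ASB9, which encodes another recognition subunit of cullin-5 ligases, rose with galunisertib in both lines with and without TGFβ, by 1.10 ± 0.14 in PLC/PRF/5 and 1.13 ± 0.15 in SNU-449 with galunisertib added to TGFβ (limma adjusted p = 1.8e-04 and 4.9e-04), and by 0.54 ± 0.14 and 0.81 ± 0.15 with galunisertib alone (limma adjusted p = 0.048 and 0.011). ASB1 and the brightest probe of ASB7 rose in PLC/PRF/5 (0.46 ± 0.09 and 0.60 ± 0.14) and stood at -0.08 and -0.06 in SNU-449. The second probe of ASB7 stood at -0.10 in PLC/PRF/5 (limma adjusted p = 0.58) and 0.06 in SNU-449, so the direction of ASB7 is uncertain. None of the other ASB genes tested passed in this comparison in either line.

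Of the ligase partners, the scaffold CUL5 (0.39 ± 0.14, limma adjusted p = 0.047) and the adaptor ELOC (0.63 ± 0.09, limma adjusted p = 4.2e-04) rose in PLC/PRF/5. The CUL5 call was lost when any of the 6 arrays compared was left out. The brightest probe of FLNA, a filamin that ASB2 targets, fell in both lines (-0.79 ± 0.22 and -0.48 ± 0.09, limma adjusted p = 0.015 and 0.0058), but its second probe stood at 0.16 and 0.42, so the direction of FLNA is uncertain. These are transcript levels, and filamin degradation was not measured.

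Around RIN1, its relative RIN3, also an activator of RAB5, fell in both lines (-0.47 ± 0.16 and -0.52 ± 0.15, limma adjusted p = 0.040 and 0.035), whereas RIN2 rose in PLC/PRF/5 (0.60 ± 0.10, limma adjusted p = 0.0012). The call of RIN3 was lost without any single array in SNU-449 and without 5 of 6 in PLC/PRF/5. The RAB5 activator RABGEF1 and RAB5B fell in PLC/PRF/5 (-0.34 ± 0.09 and -0.38 ± 0.08), and YWHAB, a 14-3-3 protein that binds RIN1, rose (0.52 ± 0.08). ABL1, the kinase that RIN1 stimulates, fell in SNU-449 (-0.48 ± 0.08, limma adjusted p = 0.0027) and stood at -0.19 in PLC/PRF/5 (limma adjusted p = 0.059), and its second probe, at -0.38 in SNU-449, did not pass (limma adjusted p = 0.30). HRAS and the brightest probe of NRAS did not pass in either line with galunisertib added to TGFβ, while the second NRAS probe, tested on its own, stood at -0.85 ± 0.23 in SNU-449 (limma adjusted p = 0.033). With galunisertib alone HRAS rose in PLC/PRF/5 (0.35 ± 0.07, limma adjusted p = 0.017) and did not pass in SNU-449 (0.04 ± 0.09, limma adjusted p = 0.79). RAB5C had the largest change of the list in SNU-449, -3.78 ± 1.13 with galunisertib alone, but was above background on 1 of 3 treated arrays and did not pass (limma adjusted p = 0.070).

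For urate and phosphate transport, 5 of 8 genes tested passed in PLC/PRF/5 with galunisertib added to TGFβ and 1 of 5 in SNU-449, beside 39% and 16.3% of all genes. PDZK1, the scaffold that holds urate transporters at the membrane, fell in PLC/PRF/5 (-1.14 ± 0.11, limma adjusted p = 3.6e-05), as did the sodium-phosphate cotransporter SLC34A1 (-1.15 ± 0.30, limma adjusted p = 0.011). ABCG2 and SLC2A9, which carry urate across cell membranes, rose (0.99 ± 0.10 and 0.72 ± 0.13, limma adjusted p = 6.0e-05 and 0.0016), as did the phosphate importer SLC20A1 (0.66 ± 0.11). In SNU-449 the phosphate exporter XPR1 fell (-0.86 ± 0.11, limma adjusted p = 4.8e-04), though its second probe, at -0.78, did not pass on its own (limma adjusted p = 0.065), and PDZK1 stood at 0.37 ± 0.26 (limma adjusted p = 0.41).

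**Figure D5:**
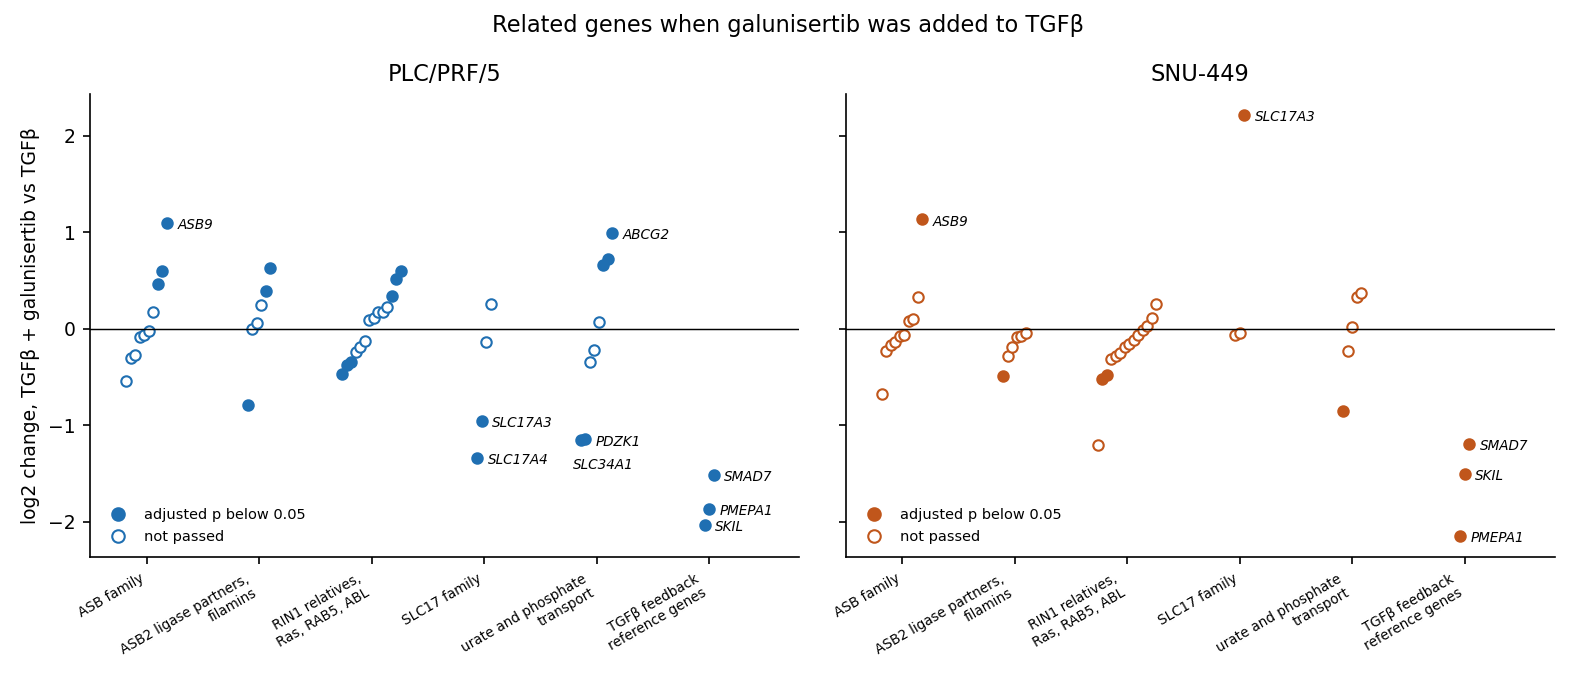
Log2 change of the related genes reported when galunisertib was added to TGFβ (vertical axis), grouped by list (horizontal axis), in PLC/PRF/5 (left) and SNU-449 (right). Filled points passed an adjusted p of 0.05, open points did not, and genes that passed with a change above 0.9 in size are named, with inhibitors of TGFβ signalling as reference. ASB9 rose in both lines, and SLC17A3 stood at -0.95 on the left and 2.22 on the right.

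The genes most alike to each member were sought among 14810 genes by Pearson's r over the 24 arrays, centred on each line's mean, which is a description, because the arrays share 8 treatment groups and most treated genes follow them. For ASB2 these were DUSP5 (r = 0.96), the cyclin gene CCNO (r = 0.95) and TEX10 (r = 0.95). For RIN1 they were MAP2K6 (r = 0.98) and MAP2K3 (r = 0.97), both kinases that activate p38, and the transcriptional coactivator PPARGC1B (r = 0.96). Their changes follow from this choice: with galunisertib added to TGFβ, MAP2K6 stood at 1.83 ± 0.12 in PLC/PRF/5 and 1.94 ± 0.14 in SNU-449, beside 1.85 and 1.49 for RIN1.

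For SLC17A1 the closest were ZNRF3 (r = 0.94), a ubiquitin ligase that removes WNT receptors, its chromosomal neighbour SCGN (r = 0.93) and the kinase gene MAP3K8 (r = 0.93). With galunisertib added to TGFβ, ZNRF3 stood at -0.33 ± 0.07 in PLC/PRF/5 and 0.34 ± 0.08 in SNU-449, and MAP3K8 at -1.25 ± 0.13 and 0.68 ± 0.16. Among the members themselves, ASB2 and RIN1 had r = 0.93, whereas SLC17A1 ran against RIN1 over the 12 PLC/PRF/5 arrays (r = -0.98) and with it over the 12 SNU-449 arrays (r = 0.95). The arrays by which the rule chose the genes are among these, and SLC17A1 was at the floor in SNU-449 cells with TGFβ alone. Nothing is therefore read from the size or sign of these r values.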

How the data were processed

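RNA from 24 cultures was hybridised to 24 one-colour arrays. The authors deposited scanner output from Feature Extraction 10.7.3.1, whose processed signal is an intensity, background-subtracted and detrended within the array but not normalized between arrays, and a table of log2 values from GeneSpring, per the methods, which served as an alternative only. That table holds 30913 probes, each with a median of 0 over the arrays and array medians from -0.06 to 0.06. Its changes for ASB2, RIN1 and, away from the floor, SLC17A1 match those of the scanner files in scale and direction. The match over all probes was not examined. The array design header names build hg19. RefSeq GRCh38.p14 tables gave gene names, neighbour order and promoter sequences.

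Control spots and 111 to 216 outlier spots per array were left out, and 0 spots were saturated. Spots of a probe were averaged, divided by the array's 75th percentile over probes (104 to 185 intensity units in PLC/PRF/5, 132 to 178 in SNU-449), floored and put on a log2 scale. Between 41.6% and 49.6% of probes were well above background. The number of arrays limits the precision. Testing required that 1 group or more of the fit had the probe well above background on all its arrays, and the brightest probe stood for its gene. The fits were made in R 4.3.3 by limma 3.58.1 (lmFit with eBayes), using the 12 arrays of a line, or all 24 for line differences, and Benjamini-Hochberg adjustment ran over all genes tested. A gene passed at an adjusted p below 0.05. The steps were tested on simulated data.

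The members, the lists and the tests were chosen with earlier results of these data known. Genes named are the members' probes, list genes that passed and others with the largest changes, the 2 nearest protein-coding genes on each side, the 3 most alike genes, those nearest the limit of the rule, and cell type markers. Some list genes are not reported here by name or in the list plot, though the list counts include them. Probes of 1 gene can disagree, and second probes are given for ASB7, FLNA, CARMIL1, NRAS, ABL1 and XPR1. The files hold no mean spot signal, so the normexp alternative used the median signal and median background with an offset of 50. The replicate number is also the slide. Deviations from the group means of same-numbered arrays correlated at 0.20, 0.27 and 0.10 for both agents against TGFβ in SNU-449, all above the limit of 0.1 for pairing. In PLC/PRF/5 they correlated at 0.07, 0.33 and 0.03, where only replicate 2 was above it. The main fits held no replicate block. Slide and replicate number are the same, so their effects cannot be separated. Alternatives covered background, scaling, floor, filter, gene summary, the authors' table, the samples in the fit, the replicate block, the methods' t-test, spot position and single arrays left out.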

Additional observations from a re-analysis of the deposited data

Results flagged for a closer look

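The line difference was looked up only for ASB2, RIN1, SLC17A1 and the genes around SLC17A1, and not for the other genes named. By an interaction test over all 24 arrays, the effect of galunisertib added to TGFβ differed between SNU-449 and PLC/PRF/5 for 5 of those measured in both lines. Of all 17902 genes tested, 30% passed this test. The difference, SNU-449 minus PLC/PRF/5 on the log2 scale, was 3.38 for SLC17A1, 3.17 for SLC17A3, 2.48 for SCGN, 1.52 for H2AC1 (limma adjusted p = 0.018) and -1.09 for ASB2. For SLC17A1, SLC17A3 and SCGN the effects had opposite signs in the lines, and for ASB2 both were rises. SLC17A4 was above background on 0 of 12 SNU-449 arrays, so that its fitted difference of 1.33 is its PLC/PRF/5 change set against the floor. The H2AC1 difference did not pass without replicate 1 of TGFβ-treated PLC/PRF/5 cells (1.35, limma adjusted p = 0.052), nor under 4 of 15 alternatives (limma adjusted p from 0.00090 to 0.14 over these). The others passed without any single array. SLC17A1, SCGN, H2AC1 and SLC17A3 lie close together on chromosome 6, which follows from the choice of genes looked up. With 3 arrays a group, single outlying arrays were not looked for.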

How the results depend on the processing

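No tested value of ASB2, RIN1 or SLC17A1 changed its direction under any alternative run. Of 198 tested values under the alternatives, 195 stayed on their side of the threshold. Scaling to the array median lowered the ASB2 rise in SNU-449 to 0.74, and doubling the floor to 200% lowered the SLC17A1 rise in SNU-449 to 0.41 and brought the RIN1 line difference of -0.36 past the threshold (limma adjusted p = 0.047), as did leaving out replicate 3 of both agents in either line. Without single replicates that difference ran from -0.45 to -0.28 (limma adjusted p = 0.025 to 0.17). Over the alternatives its adjusted p ran from 0.047 to 0.64, that of ASB2 in SNU-449 from 0.0005 to 0.075 and that of SLC17A1 in SNU-449 from 6.7e-05 to 0.064. Normexp shrank dim probes: with galunisertib added to TGFβ, ASB2 stood at 0.94 and 0.48 and SLC17A1 at -0.98 and 0.56 in PLC/PRF/5 and SNU-449, all passing, the line differences fell to -0.46 and 1.54, and the untested galunisertib-alone values were 0.63 and 0.74 for ASB2 and -0.45 and 0.52 for SLC17A1. RIN1 with galunisertib alone was 1.08 in PLC/PRF/5 with the percentile over probes above background on all arrays, and 0.97 in SNU-449 with local spot correction. Counts of related genes that passed with galunisertib alone (4 in PLC/PRF/5 and 3 in SNU-449) became 2 and 6 with normexp, 1 and 1 with median scaling, 1 and 0 with no scaling, 2 and 0 with only the groups compared, 0 and 0 with the methods' t-test, and 7 in SNU-449 with the floor at 200%, and without single replicates the PLC/PRF/5 count ran from 2 to 4. With no scaling, 7 related genes passed in PLC/PRF/5 with galunisertib added to TGFβ in place of 20. Over all genes the count there ran from 1010 to 8959 around 6513, in SNU-449 from 1337 to 3698 around 2630, for the line difference from 1706 to 7816 around 5379, and with galunisertib alone from 36 to 1432 around 827 and from 44 to 1779 around 1218. Without single replicates the galunisertib-alone counts ran from 265 (without replicate 2 of the PLC/PRF/5 controls) to 984 and from 630 (without replicate 1 of the SNU-449 controls) to 1613. In the authors' table the SLC17A1 line difference was 5.42. The replicate block changed no call of the 3 genes: the ASB2 rise in SNU-449, 0.90 by either fit, had a limma adjusted p of 0.0054 with it, and 5 related genes passed in place of 6. With all arrays required to be well above background, SLC17A1 could not be tested in SNU-449. The causes were not tested. Signal over background limits SLC17A1 and SCGN in SNU-449, where TGFβ-treated cells give a bound only.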
